A study of Drosophila melanogaster with 4 samples.

Results

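Arc1 (CG12505) and Arc2 (CG13941) are neighbouring Drosophila melanogaster genes on chromosome arm 2R whose proteins resemble the capsid protein of a retrotransposon. They were taken as the gene probes whose annotation ID is CG12505 or CG13941, which gave 2 of the 13059 genes that have a named probe on the array, with 1 probe each. The pair was selected on the ratio between the genotypes on these same arrays. Their ratios are therefore given below as a description, without a test.

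The study compared whole embryos of a null mutant for the 8-miR cluster (microRNA genes that lie together on the same chromosome arm) with embryos of w1118, a laboratory strain with white eyes that served as wild type. The labels give the w1118 background for both genotypes, eggs laid over 2 h and aged for 6 h at 25 °C, and a stage of 6 to 8 h after egg laying. Titles and source names give the mutant as an 8-miR cluster null, whereas the genotype field reads miR-8 cluster null and the treatment text speaks of ectopic mir-3. These label fields contradict each other, and titles and source names are followed here. Each of 3 replicates set 1 null extract against 1 w1118 extract, independently isolated according to the design text. How many embryos or fly lines went into an extract is not given in the sources used here.

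Arc proteins descend from the Gag protein of Ty3/gypsy retrotransposons, the protein that packs a retrotransposon's RNA. Fly Arc1 protein assembles into capsid-like shells, binds its own mRNA and passes from motor neurons to muscle in extracellular vesicles at the larval neuromuscular junction. Arc1 is also known for its part in the behaviour of starved flies and in fat metabolism. Arc2 protein can form similar shells but lacks the zinc-finger-like end of Arc1.

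RNA was labelled with the dyes Cy3 and Cy5 and hybridised to 2-colour Agilent arrays. In replicates 1, 2 and 3, null RNA was labelled with Cy3 and w1118 RNA with Cy5, and replicate 1 was hybridised again with the dyes exchanged, which made 4 arrays on 2 slides. Of 43603 gene spots per array, 58.0% to 65.8% were well above background in the null and 56.7% to 65.5% in w1118, and 0 were saturated. Log2 ratios of the kept probes correlated between the unswapped arrays at Pearson's r of 0.941 to 0.958, and between the dye-swap array and the others at 0.824 to 0.883 (across probes, which do not count as replicates). No named probe matched the cluster's microRNAs (0 of 8), so the arrays could not check the deletion, and which genotype is higher in a ratio is known only through the labelled dyes. Ratios below are log2 of null over w1118, the opposite of the direction in the authors' series matrix.

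Arc1 RNA was about 10-fold lower in null embryos on every array. Its single probe, A_09_P007636, was printed as 2 spots per array, and all 8 spots were well above background in each genotype. After subtraction of the local background, the Arc1 spots of the replicate 1 array read 874 and 1145.5 intensity units in the null and 14526 and 17623 in w1118. On the dye-swap array of the same replicate they read 1236 and 1719 in the null and 8143 and 11155 in w1118. The w1118 spots were the brighter ones in either dye. The replicate 2 array gave 1094 and 1196.5 in the null and 16767 and 13696 in w1118. The replicate 3 array gave 1152 and 1259 in the null and 15822 and 14957 in w1118. The brightest null spot (1719) thus lay below the dimmest w1118 spot (8143). Since Arc1 was selected on its ratio on these arrays, this gap is a description only. The 8 spots of a genotype come from 3 extracts and do not count as replicates.

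These readings still carry the difference in brightness between the dyes. With the null in Cy3, the raw w1118 reading was 11.5 to 16.6 times that of the null, and with the null in Cy5 it was 6.49 to 6.59 times. After normalization within each array the dye orientations came together, at log2 ratios of -3.16 for replicate 1, -3.43 for its dye swap, -3.39 for replicate 2 and -3.29 for replicate 3. The swap array was thus lower than its unswapped partner by 0.27, and the widest gap between replicate values was 0.11. The 2 spots of an array differed by 0.01 to 0.41. The mean Arc1 ratio was -3.33 ± 0.06 (SD, n = 3), which corresponds to a signal 10.03-fold higher in w1118. In normalized log2 signal, Arc1 averaged 10.43 ± 0.27 in the null and 13.76 ± 0.29 in w1118 (SD, n = 3 each). In whole embryos, fewer cells that express a gene and less RNA per cell cannot be told apart.

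Arc2 could not be compared between the genotypes. Its probe, A_09_P007646, was well above background at 1 of 8 spots in the null and 2 of 8 in w1118, so it was left out of the tests. Net Arc2 readings were 9.5 to 42 intensity units in the null and 9 to 38 in w1118, so the genotypes overlapped over nearly their whole range. The 3 spots above background were 1 w1118 spot on the replicate 1 array, at 38, and 1 spot of each genotype on its dye swap, at 42 in the null and 36 in w1118. Measured Arc2 ratios were -0.09 on the replicate 1 array, 0.00 on its dye swap, 0.02 for replicate 2 and 0.00 for replicate 3. With both genotypes at background, the offset of 50 intensity units added before the log draws such ratios towards 0, and no fold is given. The scanner's own error on the log2 ratio of an Arc2 spot was 0.25 to 2.04, against 0.36 to 0.38 for an Arc1 spot with a ratio of -3.45 to -3.23.

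**Figure D1:**
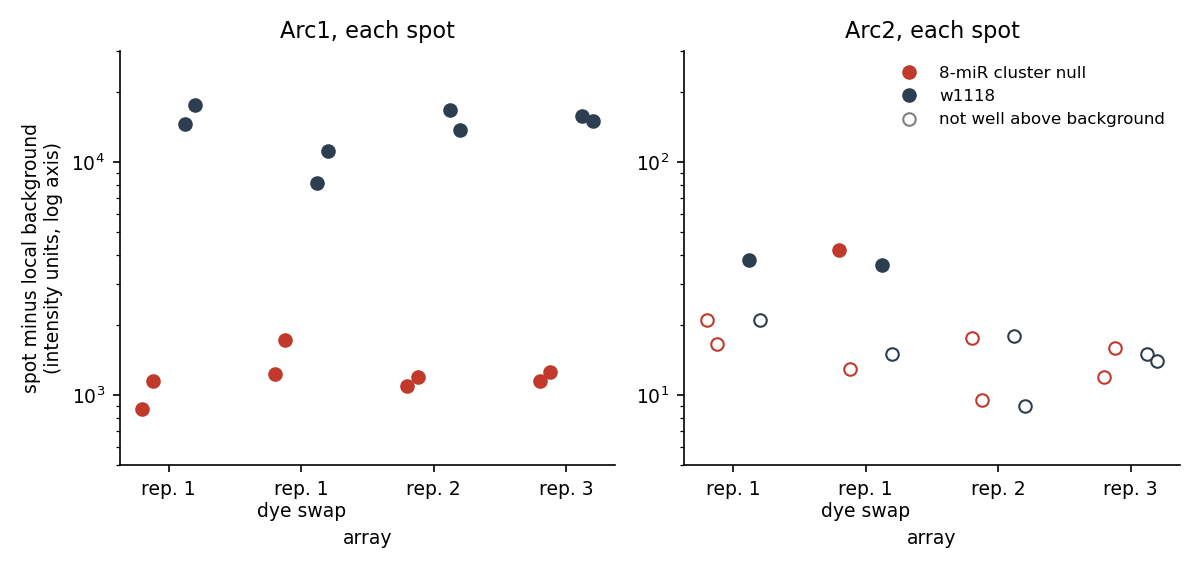
Signal of each Arc1 spot (left) and Arc2 spot (right) minus its local background, in intensity units on log axes that differ between the panels, for the null (left in each pair of columns) and w1118 on the 4 arrays; open circles mark spots not well above background. The null Arc1 spots lie between 874 and 1719 and the w1118 spots between 8143 and 17623, while the Arc2 spots of both genotypes lie between 9 and 42.

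Among the 9739 genes tested, Arc1 held place 12 from the lowest ratio, and 0.123% of the genes were as low or lower. On single arrays it held place 11 or 12 on each of the 4. Among the 8649 genes that were above background in both genotypes on all arrays it was at place 9. Its arm, 2R, carried 1982 of the genes tested, of which 4 were as low as Arc1 or lower, Arc1 included, and the other 8 of the 12 lowest genes lay on other arms or were not placed. Beside Arc1 in this order was Ir52c, an ionotropic receptor gene, at -3.34 ± 0.30. Ir52c was well above background in the null on 1 of 4 arrays, and its ratio was -5.57 with no offset and -7.22 with the scanner's processed signals, so its size and its place against Arc1 are not settled. Next below were Apc, a negative regulator of Wnt signalling, at -3.52 ± 0.06 and the mitochondrial peroxiredoxin gene Prx3 at -3.78 ± 0.22. Just above it were the lysozyme genes LysE at -3.23 ± 0.05 and LysD at -3.15 ± 0.05, then mwh, a gene of planar cell polarity, at -3.03 ± 0.08. The probes of mwh disagreed, and their mean gave -1.39. The median ratio over all genes tested was 0.01. With the scanner's processed signals in place of the values used here, Arc1 kept its size, at -3.36, but moved to place 53.

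**Figure D2:**
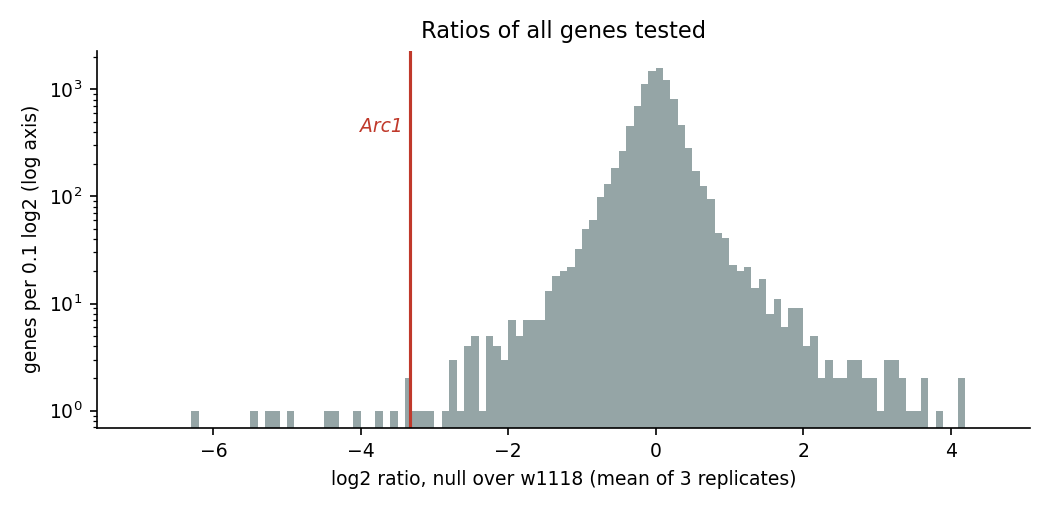
Number of genes (log axis) by log2 ratio of null over w1118, in steps of 0.1, for the 9739 genes tested; the vertical line marks Arc1. Most genes lie close to the median of 0.01, and Arc1 at -3.33 lies in the thin tail of low ratios.

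The genes whose ratios were nearest to those of Arc1 over the 4 arrays, by Euclidean distance among 9738 genes compared, were LysE (0.25), LysD (0.34), Apc (0.43), Ir52c (0.61) and mwh (0.65). LysE gave -3.08 on the replicate 1 array, -3.28 on its dye swap, -3.22 for replicate 2 and -3.28 for replicate 3. LysE and LysD are close copies whose probes may share targets, so their values are uncertain. The distances of Ir52c and mwh rest on the ratios described above as unsettled or as differing between probes. All genes were read from the same extracts on the same arrays, and these were found by their likeness in size, so the distances are a description. No such genes are named for Arc2, which was not tested.

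None of the measured neighbours of the pair had a ratio as low as that of Arc1, here or under the alternatives tried. Gene order was taken from the Release 6 RefSeq table, in which 939 listed genes lie between Arc2 and the microRNA cluster. The pseudogene CR10102 lies between Arc1 and Arc2, and its probe was above background on 0 of 4 arrays in either genotype. Taking 5 measured genes to either side, 6 of 10 differed between the genotypes (limma, adjusted p under 0.05), where 54.7% of all genes tested did. The share of neighbours was thus near that of the array at large.

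On the Arc1 side, the nearest measured gene, CG8617, fell at -0.24 ± 0.14 (limma adjusted p = 0.0156), with -0.13 on the replicate 1 array, -0.05 on its dye swap, -0.35 for replicate 2 and -0.28 for replicate 3. Next to it, CG8613 gave -0.01 ± 0.12 and did not pass (adjusted p = 0.882). Shrm, the gene of an actin-binding protein of epithelial folding, fell at -0.34 ± 0.17 (adjusted p = 0.00701), but gave -0.01 on the dye-swap array, and a 2nd probe gave 0.08. The piRNA pathway gene tej rose at 0.18 ± 0.03 (adjusted p = 0.0151). Ih, which encodes a cation channel opened by hyperpolarization, rose at 0.88 ± 0.11 (adjusted p = 4.71e-05), opposite in sign to Arc1. Its ratio was positive on all 4 arrays, from 0.76 for replicate 2 to 1.08 on the dye swap.

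On the Arc2 side, Tfb1, a subunit gene of the transcription factor TFIIH, gave -0.11 ± 0.09 and did not pass (adjusted p = 0.126). CG34184 gave 0.00 ± 0.06 (adjusted p = 0.978). CG34442 rose at 0.18 ± 0.06 (adjusted p = 0.0163), and CG34443 fell at -0.35 ± 0.07 (adjusted p = 0.0014). Both were dim, CG34443 being above background in the null on 2 of 4 arrays, and their sizes depend on the offset. With no offset CG34442 gave 0.40 and CG34443 -0.97. The scanner's processed signals gave 0.58 for CG34442 and -1.87 for CG34443, the lowest ratio of any of these neighbours under the alternatives. CG17385, with 15 listed genes between it and Arc2, gave 0.03 ± 0.13 (adjusted p = 0.687). The stretch spans 24 listed genes, of which 11 were measured above background. Calls in this stretch were sensitive to single arrays: with replicate 1 taken from its dye-swap array alone 3 of the 10 neighbours passed, and likewise 3 without replicate 2 or without replicate 3.

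**Figure D3:**
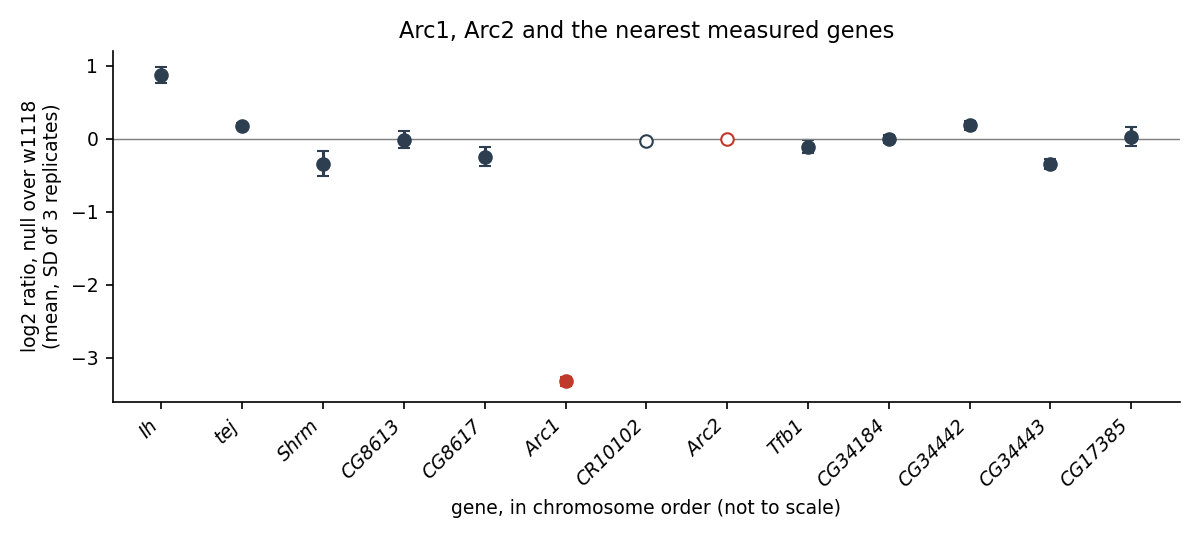
Log2 ratio of null over w1118 (mean and SD of 3 replicates) for Arc1, Arc2, the pseudogene between them and the 5 nearest measured genes on each side, in gene order and not to distance; open circles mark probes not kept because they were too dim. Arc1 stands at -3.33, while the other measured genes lie between -0.35 and 0.88 on this scale, which shrinks the ratios of dim genes such as CG34443.

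Of the other genes of retroelement origin listed, 1 could be tested. Gagr, a host gene derived from the gag of a gypsy element, fell at -0.73 ± 0.10 (limma adjusted p = 8.51e-05), with -0.80 on the replicate 1 array, -0.73 on its dye swap, -0.62 for replicate 2 and -0.81 for replicate 3. It was above background in both genotypes on all 4 arrays, and its ratio was negative on each. The size depends on the offset, since Gagr gave -1.19 without it and -1.28 with the scanner's processed signals. Iris, a host gene derived from a retroviral envelope gene, was above background on 0 of 4 arrays in either genotype, so no change could be measured. Of the 2 retroelement-derived genes listed, 1 was thus tested and 1 fell, where 26.6% of all genes tested were lower. A single gene shows no trend for genes of this origin.

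Over all genes, 26.6% of those tested were lower in the null and 28.1% higher. Genes of the synapse and neuromuscular junction were lower more often than higher: 8 of 16 tested fell and 2 rose, with a median ratio of -0.15. These counts were 4 and 0 without replicate 3, and 5 and 0 with replicate 1 from its dye-swap array alone. They were 2 and 0 without limma's moderation of variances. Most of those that fell were dim in the null, with log2 signals of 6.10 (GluRIIA) to 6.87 (nSyb), against 12.68 for Syt1. The lowest null signal above background was 5.99. Of those that rose, brp was dim as well, at 6.34. Transfer of Arc1 protein is known from the larval junction, and the embryos here were 6 to 8 h old. Syt4, a synaptotagmin that acts on the muscle side of the junction and travels in vesicles, fell at -1.48 ± 0.11 (limma adjusted p = 4.17e-06), and lay between -1.63 and -1.41 on the 4 arrays. It was dim in the null, and gave -2.44 with no offset and -2.82 with the scanner's processed signals. Syt1, the calcium sensor of transmitter release, fell at -0.55 ± 0.18 (adjusted p = 0.00106). The vesicle SNARE gene nSyb fell at -0.34 ± 0.08 (adjusted p = 0.00187) and the neurexin gene Nrx-1 at -0.26 ± 0.04 (adjusted p = 0.00325). With the scanner's processed signals nSyb gave -0.70 and Nrx-1 -0.71. GluRIIA, a glutamate receptor subunit gene of the muscle, did not pass background in null embryos on any array and was lower there (limma adjusted p = 0.0265). Its bound of 1.09-fold leaves out the spread between replicates, and the limma 95% interval of its log2 ratio was -0.27 to -0.05.

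Genes of the ESCRT machinery and of extracellular vesicles, through which Gag proteins and vesicles leave cells, mostly did not pass the test. Of 22 tested, 3 rose, 3 fell and 16 were not called, with a median of -0.06. Of all genes tested, 54.7% were called, 28.1% higher and 26.6% lower. The number that fell rests on single arrays: it was 0 without replicate 3 and with replicate 1 from its dye-swap array, 6 without replicate 1, and 9 with replicate 1 from its unswapped array. The number that rose was 2 without replicate 2 or replicate 3. Without limma's moderation of variances 0 rose and 1 fell. The Wnt carrier gene wls, whose product is a cargo of vesicles at the fly neuromuscular junction, rose at 0.46 ± 0.09 (adjusted p = 0.000522). Hrs, a subunit gene of the complex that first sorts cargo into endosomes, rose at 0.37 ± 0.10 (adjusted p = 0.0018), with 0.07 on the dye-swap array and 0.70 by its other probe. The ESCRT-III subunit gene Vps2 fell at -0.26 ± 0.16 (adjusted p = 0.0176), with 0.02 on the dye-swap array and -0.14 with the scanner's processed signals. Rab7, a GTPase gene of late endosomes, fell at -0.24 ± 0.03 (limma adjusted p = 0.00468), with -0.07 on the dye-swap array. The Rab7 call was lost under 2 of 14 alternatives.

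Genes for RNA-binding proteins of neuronal granules moved in both directions, with 3 of 14 tested higher, 4 lower and a median of -0.01. Among all genes tested 28.1% were higher and 26.6% lower. Without replicate 3, 2 were lower, and without replicate 1, 5 were higher. Without limma's moderation of variances 1 was higher and 3 were lower. Probes of some called genes disagreed in direction. For stau, called lower at -0.26, a 2nd probe gave 2.18, and for orb, called lower at -0.23, it gave 0.02. Fmr1, called higher at 0.27, had other probes at -0.51 to 0.55. The translational repressor gene pum rose at 0.70 ± 0.17 (adjusted p = 0.000318), though its other probes gave -0.10 to 0.29 and the mean of its probes 0.30. Its partner brat fell at -0.39 ± 0.26 (adjusted p = 0.0143), with 0.23 on the dye-swap array and 0.33 by a 2nd probe, so the direction for brat depends on the probe and the array. The CPEB gene orb2 fell at -0.38 ± 0.04 (adjusted p = 0.000696). Syp, which encodes an mRNA-binding protein of the hnRNP family, rose at 0.35 ± 0.02 (adjusted p = 0.000804), and its other probes gave 0.34 to 0.48. With the scanner's processed signals Syp gave 0.54.

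Mammalian Arc is an immediate early gene, induced by neuronal activity, so genes known to follow activity in flies were listed too. Of 9 tested, 3 rose and 2 fell, with a median of -0.05, where 28.1% of all genes tested were higher and 26.6% lower. Leaving out replicate 3 left 1 higher and 1 lower, and leaving out limma's moderation of variances left 0 higher and 1 lower. CG13868 fell at -0.47 ± 0.07 (limma adjusted p = 0.000371) and puc, a phosphatase gene that is a target of JNK signalling, fell at -0.28 ± 0.12 (adjusted p = 0.00683). For puc the dye-swap array gave -0.07 and a 2nd probe -0.25, and the call was lost under 3 of 14 alternatives. The EGR family gene sr rose at 0.19 ± 0.06 (adjusted p = 0.0135), or 0.54 with the scanner's processed signals. For the kinase gene meng no array passed background in w1118, and null signal was higher (limma adjusted p = 0.00918). Its bound of 1.16-fold leaves out the spread between replicates, and the limma 95% interval of its log2 ratio was 0.10 to 0.33.

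Among genes of insulin signalling, starvation and fat stores, 7 of 19 tested fell and 4 rose, with a median of -0.02. Of all genes tested, 26.6% were lower and 28.1% higher. Without replicate 3, 3 fell and 2 rose, and 3 also fell without replicate 2 and with replicate 1 from its dye-swap array. Without limma's moderation of variances 3 fell and 1 rose. Thor, the translation inhibitor 4E-BP that is known to be induced on starvation, fell at -1.95 ± 0.10 (adjusted p = 1.34e-06), and lay between -2.03 and -1.84 on the 4 arrays. The insulin-like peptide gene Ilp6 fell at -1.17 ± 0.08 (adjusted p = 8.41e-06), and its other probes gave -1.10 and -0.37. Another such gene, Ilp5, did not pass background in null embryos on any array and was lower there (limma adjusted p = 8.84e-05), so it has no place in an order of sizes. Its bound of 1.56-fold leaves out the spread between replicates, and the limma 95% interval of its log2 ratio was -0.86 to -0.60. With no offset its ratio was -2.38, and with the scanner's processed signals -3.80. The perilipin gene Lsd-1, which coats lipid droplets, rose at 0.71 ± 0.12 (adjusted p = 0.000142).

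**Figure D4:**
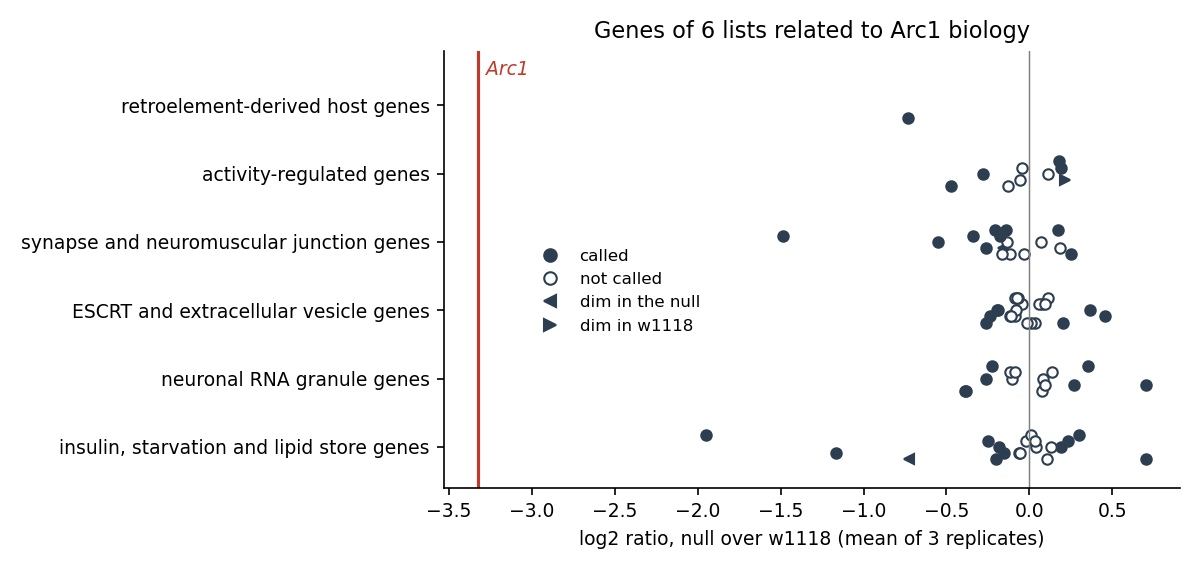
Log2 ratio of null over w1118 (mean of 3 replicates) of each gene tested in 6 lists related to Arc1 biology; filled points passed limma at an adjusted p under 0.05, triangles mark genes above background on no array of 1 genotype, and the vertical line marks Arc1. Points such as Thor at -1.95 and Syt4 at -1.48 stand to the left of most; triangles and dim genes such as Syt4 are drawn towards 0 by the offset, so the order of points is not an order of sizes.

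Markers of the cell types an embryo of this age can hold were set beside the Arc1 ratio. Of 10 neuron markers, 7 were above background on all arrays in each genotype and futsch on none. Of the 8 tested, 5 fell and 1 rose, with a median of -0.26, where 26.6% of all genes tested were lower and 28.1% higher. The summed normalized signal of these markers was 26313 to 29113 in the null and 29618 to 40891 in w1118, lower in the null on 4 of 4 arrays. Without replicate 3, 3 fell and 0 rose, and with replicate 1 from its dye-swap array 2 fell. Without limma's moderation of variances 0 fell and 0 rose. Syt1, nSyb, brp and cpx stand in both the neuron and the synapse list, so these counts are not separate. The pan-neuronal gene elav fell at -0.30 ± 0.23 (limma adjusted p = 0.0242), a call lost under 7 of 14 alternatives. Over the mean of its probes elav gave -0.14. The transcription factor gene onecut fell at -0.30 ± 0.06 (limma adjusted p = 0.00218), a call lost under 2 of 14 alternatives. For onecut the dye-swap array gave -0.03 and the other probes -0.34 and -0.05. The log2 ratio of the summed neuron markers was -0.32, against -3.33 for Arc1. That sum rests mostly on elav and Syt1, at null log2 signals of 13.82 and 12.68, against 6.34 for brp. Whether a change in neurons has a part in the Arc1 ratio was not tested.

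Of the muscle markers, all 8 were above background in both genotypes and 7 of 8 fell, with a median of -0.61, where 26.6% of all genes tested were lower. Over the alternatives 4 to 7 of these markers fell, with 4 when limma's moderation of variances was left out. The myosin light chain gene Mlc1 fell at -0.87 ± 0.13, the troponin gene wupA at -0.72 ± 0.09, the myosin heavy chain gene Mhc at -0.69 ± 0.19 and Mlc2 at -0.67 ± 0.06, each with an adjusted p of 0.000441 or less. The marker that did not pass was the actin gene Act57B, at 0.00 ± 0.03 (adjusted p = 0.949). The summed signal of all 8 markers was 44219 to 47189 in the null and 46868 to 51972 in w1118, and that of the 7 without Act57B was 6026 to 6302 in the null and 9365 to 10026 in w1118, which do not overlap. Of the 6 glia markers 1 fell, loco at -0.35 ± 0.04, and 1 rose, wrapper at 0.28 ± 0.07, and the summed signal was 36220 to 38948 in the null and 38496 to 39942 in w1118. The part of either cell type in the Arc1 ratio was not tested.

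Other marker lists moved in mixed directions. Of 5 hemocyte markers tested, Pxn rose at 1.41 ± 0.06 and PPO1 at 1.41 ± 0.18, while crq fell at -0.78 ± 0.07. Other probes gave 0.29 to 0.58 for Pxn and -0.50 to -0.26 for crq, and the mean of the kept probes was 0.76 and -0.51. Hml was not well above background in null embryos and was lower there. Its bound of 1.31-fold leaves out the spread between replicates, and the limma 95% interval of its log2 ratio was -0.55 to -0.34. Col4a1 gave -0.04 and was not called, and He and NimC1 were above background on no array. Of 3 fat body markers tested, Adh rose at 0.50 ± 0.16, with other probes at -0.11 to 0.86, and apolpp gave -0.04 and was not called. The transcription factor gene srp fell at -0.13 ± 0.03, with 0.00 on the dye-swap array, a call lost under 6 of 14 alternatives and without replicate 2 or replicate 3, while the larval serum protein genes Lsp1alpha and Lsp2 and the genes Fbp1 and Fbp2 were above background on no array. Of 7 amnioserosa markers tested, Kr, which also patterns the trunk segments, rose at 3.46 ± 0.17, and Doc1, Doc2 and Doc3 fell at -0.41 ± 0.14, -0.36 ± 0.13 and -0.33 ± 0.13. Doc1 gave -0.07 on the dye-swap array. Among 5 midgut markers, 3 enzyme genes rose, namely Amy-p at 2.73 ± 0.11, Amy-d at 2.66 ± 0.14 and Mal-A1 at 2.47 ± 0.13, and mex1 fell at -0.54 ± 0.05, or -1.21 with the scanner's processed signals. The transcription factor gene GATAe gave 0.13 and was not called. A 2nd probe of Amy-p gave 1.53, and the mean of its probes was 2.13. Amy-p and Amy-d are close copies and may share signal.

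Genes of the ovarian follicle and yolk, which serve egg formation in the mother, were lower in 6 of 10 tested and higher in 1, with a median of -0.50. Of all genes tested, 26.6% were lower and 28.1% higher. Over the alternatives 3 to 8 genes of this list were lower. Vm26Aa, of the vitelline membrane, fell at -2.05 ± 0.06, Cp15, of the chorion, at -1.10 ± 0.08, and Yp2, a yolk protein gene, at -1.06 ± 0.15. Yp2 was above background in the null on 3 of 4 arrays, and gave -1.97 with no offset and -2.56 with the scanner's processed signals. Vm32E was not well above background in null embryos and was lower there (limma adjusted p = 3.41e-06). Its bound of 2.29-fold leaves out the spread between replicates, and the limma 95% interval of its log2 ratio was -1.36 to -1.15. The list's summed signal was 1226 to 1266 in the null and 2233 to 2437 in w1118, which do not overlap. The part of maternal tissue in the Arc1 ratio was not tested.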

How the data were processed

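Total RNA of null and w1118 embryos was measured on 4 arrays (3 replicates, replicate 1 with a dye swap). Per the file headers, spots were extracted with Agilent Feature Extraction 10.1.1.1, and the array design used an annotation older than Release 6. The deposited intensity columns used were the median spot and local background brightness, not normalized. A processed intensity, also deposited, had been corrected for background and dye by the scanner software, and the deposited log10 ratio of Cy5 over Cy3 came from it, per the file headers. The deposited p-value of each spot was not used. The authors' series matrix held log2 values of unstated scale and centring; it followed the processed signals with a slope of -1 against null over w1118 (column medians -0.137, 0.0707, 0.128 and -0.0411), so it runs w1118 over null.

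Background was corrected by normexp (offset 50) in limma 3.58.1 under R 4.3.3, and ratios were normalized by loess within arrays, with control and outlier spots at weight 0. Spots of a probe and then both arrays of replicate 1 were averaged, giving n = 3. Kept probes passed background in 1 and the same genotype in 2 or more of 3 replicates, and a gene was its brightest kept probe. Of 32162 probes, 19482 were named through the Release 6 RefSeq table and 12680 were not; the table served for names and gene order only. Of 19755 kept probes 14240 were named, giving 9739 genes. Calls used lmFit and eBayes with a Benjamini-Hochberg adjusted p under 0.05; the steps were tested on simulated data. A gene above background on no array of 1 genotype was given a bound against the lowest signal above background or its own, whichever was higher, from channel signals after loess and Aquantile, and may carry dye bias because replicates 2 and 3 were not swapped. Such a bound takes no account of the spread between replicates, so it is not the lowest fold the data allow. Channel signals given in the text are from the same step. Markers were summed over each list's tested genes on a linear scale.

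The members and lists were chosen with earlier results of these data known. Named were both Arc genes, the 5 nearest measured genes on each side and the 5 genes nearest to Arc1 over the 4 arrays. Iris, Gagr and up to 4 called genes per list were named too. GluRIIA, brp, stau, orb, Fmr1 and the genes beside Arc1 in the order of ratios were added once their values were known. The alternatives changed background, normalization, filter, probe summary, dye swap, slide, moderation and each replicate left out. The number of arrays limits the precision.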

Additional observations from a re-analysis of the deposited data

Results flagged for a closer look

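For 64 named ratios the 4 arrays were compared, and in 6 of them 1 array lay far from the other 3; chance alone gives about 1 in 20. The dye-swap array was the distant one in 4 of the 6. The Arc1 ratio was not among them. The Arc2 ratio on the replicate 1 array was -0.0919, against 0.00 to 0.02 on the others, all from spots at or near background. CG34184, a dim neighbour of Arc2, gave 0.0656 for replicate 2 and -0.04 to -0.03 elsewhere. On the dye-swap array, crq gave -0.52 (others -0.87 to -0.81), Mlc1 -0.52 (others -0.96 to -0.91), Mhc -1.21 (others -0.61 to -0.56) and Hrs 0.0731 (others 0.42 to 0.44). For crq, Mlc1 and Mhc the sign was the same on all 4 arrays.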

How the results depend on the processing

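The Arc1 ratio ran from -3.38 to -3.28 over 15 alternatives (9.72-fold to 10.4-fold higher in w1118), and was -3.30 within slide 1 and -3.34 within slide 2. Its place from the lowest ratio ran from 9 to 53. Leaving out each replicate in turn gave -3.35 to -3.29. Not all of these alternatives could move the ratio. Filters and averaging over probes could not, because Arc1 has 1 bright probe, and the authors' matrix repeats the scanner's processed value. Slide 1 held replicate 1 only, so slide and replicate cannot be told apart. The Arc2 ratio, measured at background, moved to -0.33 with the scanner's processed signals and with the authors' matrix, and to -0.0458 within slide 1; leaving out replicates gave -0.02 to 0.01. Against 2734 genes higher, 2593 lower and 6 neighbours called, taking replicate 1 from its dye-swap array gave 1748, 1682 and 3, and the test without moderation gave 1063, 1025 and 1. Without single replicates the counts ran from 1759 to 3002 higher, 1710 to 2847 lower and 3 to 6 neighbours, the lowest gene counts being those without replicate 3. The cause was not tested. Without the offset of 50 or with the scanner's processed signals, ratios of dim genes were larger, as given beside some of them. Among those not given there, Hml gave -1.45 without the offset and -3.25 with the processed signals. In the same order Vm32E gave -2.98 and -4.66, Vm26Aa -2.67 and -2.88, and meng 0.73 and 1.75. Of the named list genes, Gagr, Syt4, Thor, Ilp6 and orb2 were among those that passed under all 14 alternatives, while Vps2 and elav lost the call in 7 and brat in 4. The tests were already paired by replicate, because each ratio sets both genotypes of 1 replicate against each other on 1 array. Dim probes limit the reading for Arc2, CR10102 and Iris.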
